A study of Mus musculus with 6 samples.

Results

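The 32 genes described here encode enzymes and carriers of fatty acid oxidation, the nuclear receptor PPARA that controls many of them, and other known PPARA targets. They were found by exact gene name among 43346 genes of a mouse liver count table: 32 of 32 were present, and all 32 were among the 19352 genes with enough counts to test. By place in the cell, 16 encode mitochondrial enzymes or carriers of beta-oxidation, 5 encode peroxisomal enzymes and 11 belong to neither class. RNA came from mouse livers in a dietary model of steatohepatitis, in which all animals ate the FFC diet and were given an AAV8 vector (an adeno-associated virus that favours hepatocytes) with a short hairpin RNA, shRNA for short. The hairpin of 3 libraries was directed at S100a11, whose product belongs to the S100 family of calcium binders, and the labels call these knockdown (libraries 2, 3 and 2600). In the other 3 it was a scrambled sequence, labelled control (libraries 28, 30 and 31). All 6 libraries therefore share the diet and the vector, and the comparison asks what the hairpin against S100a11 adds to both. The promoter that drives the hairpin, its dose, the length of the diet and the age of the mice were not analysed here.

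Beta-oxidation shortens fatty acids by repeated rounds of dehydrogenation, hydration, another dehydrogenation and thiolytic cleavage. Mitochondria take in long chains through the carnitine shuttle and pass the electrons to the respiratory chain, while peroxisomes shorten very long, branched and dicarboxylic chains with their own set of enzymes and hand the products on. In liver both routes are under PPARA, which binds fatty acids as ligands, pairs with RXR receptors and switches on fat oxidation and ketone body production during fasting.

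Library depth was 53517387 to 78091845 counts. Levels are given as CPM, counts relative to the library total after TMM scaling. The hairpin's target S100a11 had 16, 3.55 and 3.41 CPM in libraries 2, 3 and 2600, and 15.9, 22.9 and 30.0 CPM in the scrambled ones, numbers 28, 30 and 31. The library labelled S100a11 shRNA 2 thus held as much S100a11 as the lowest scrambled library, and the gene missed the threshold (log2 change -1.57 ± 0.56, SE; edgeR adjusted p = 0.095). Each direction given here is that of the libraries labelled S100a11 shRNA, and the counts of members and of listed genes are also given without library 2. Whether each sample is an animal of its own is not in the labels, and the p-values then reflect only how far these samples differ, which may be technical. In bulk liver RNA, fewer cells of a type and less RNA per cell cannot be told apart.

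More than 1 in 2 of the genes rose in the libraries labelled S100a11 shRNA, from the activating enzyme Acsl1 to the peroxisomal thiolases Acaa1a and Acaa1b, and no member was called lower. Of the 32 members, 18 rose, 0 fell and 14 were not called at an adjusted p under 0.05 in edgeR's quasi-likelihood test, adjusted over all genes. At an unadjusted p under 0.05 the counts were 26 higher and 0 lower, and DESeq2 called 25 higher and 0 lower. The share of members that rose was 56.2%, against 5.82% of all tested genes, and 8.28% of all tested genes fell. Since these are abundant transcripts, the 4753 genes at least as abundant as the least abundant member (Pdk4, 36.4 CPM over the 6 libraries) give a nearer comparison: 14.2% of them rose, with a median log2 change of 0.21. The members had a median log2 change of 0.68, which is 1.60-fold, against 0.04 over all genes, and single members lay between 0.07 (Hadhb) and 1.97 (Acsl1). In 24 members all S100a11 shRNA libraries lay above all scrambled libraries, as did 16.5% of all tested genes. Library 2 was above every scrambled library in 32 of 32 members, library 2600 in 29 and library 3 in 24.

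The count of calls depended on single libraries and on scaling, more than the direction did. Without the library labelled S100a11 shRNA 2, 17 members rose, against 9.13% of all genes. Without scrambled library 30 it was 3 (1.12% of all genes), namely Acsl1, Slc25a20 and Pex11a. Without scrambled library 28 the count was 7 (2.55%), these 3 and Ppara, Etfb, Hsd17b4 and Acaa1b. Without scrambled library 31 it was 9 (2.1%), the same 3 and Ppara, Crat, Acadm, Etfb, Etfdh and Angptl4. With library totals alone in place of TMM factors 4 members rose, these 3 and Acaa1b, against 2.05% of all genes. That scaling set the median log2 change of all genes to -0.32 and of the members to 0.32, so that the members stood 0.63 above all genes with totals and 0.64 above them with TMM. Over all genes the split was 1126 higher and 1602 lower with TMM, and 397 higher and 3970 lower with totals.

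**Figure D1:**
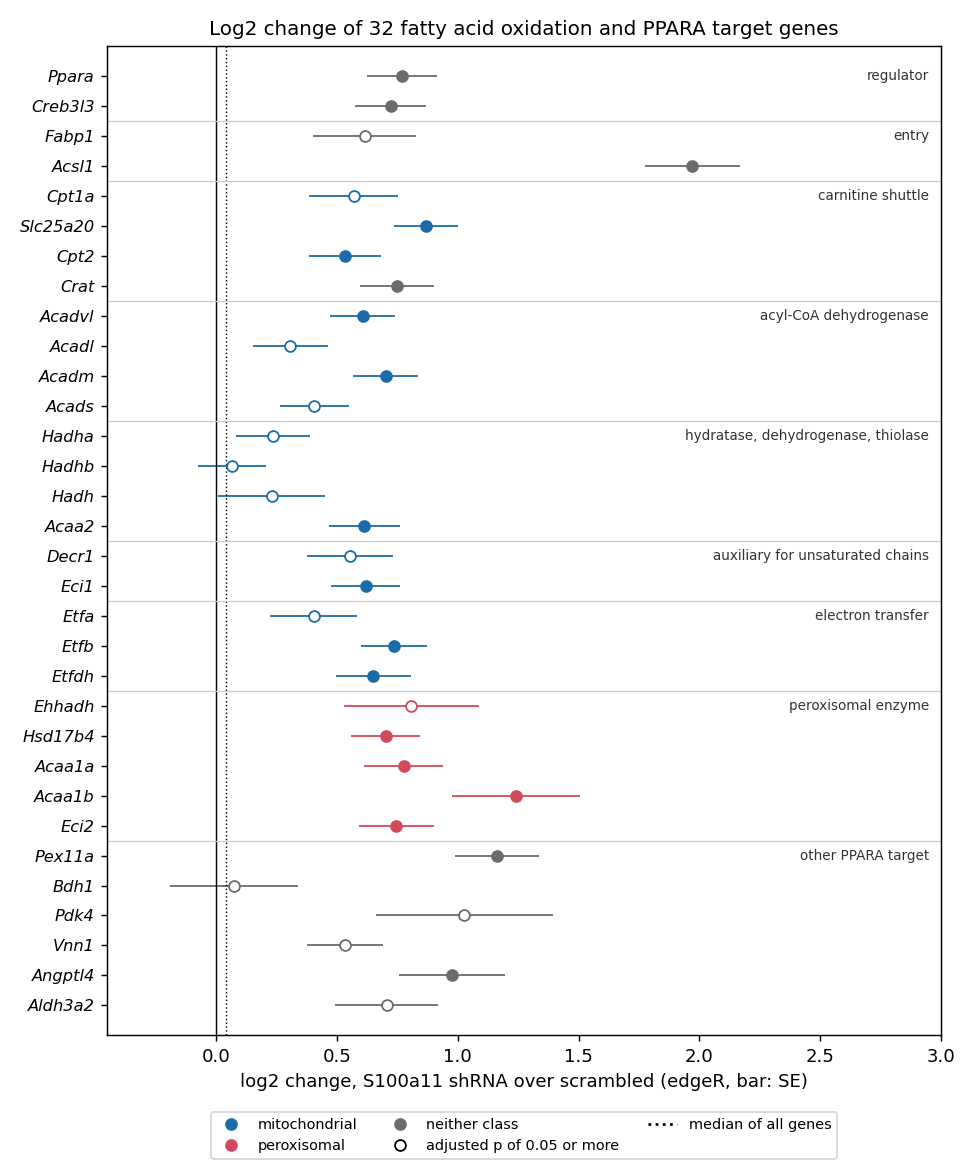
Log2 change of each of the 32 genes in the libraries labelled S100a11 shRNA over scrambled libraries (x axis, edgeR, bars are SE), ordered by role from top to bottom, with filled points for an adjusted p under 0.05. All 32 points lie above 0, with Acsl1 farthest right at 1.97 and Hadhb and Bdh1, both at 0.07, next to the dotted median of all genes (0.04).

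The promoters of these genes were read because all members had a positive log2 change and PPARA is known to bind, with RXR, to a direct repeat with 1 base between its repeats. RefSeq (GRCm38.p6) windows of 250 bases before to 50 after the start were read for 26 of the 32 genes. No window was read for Crat, Acaa2, Vnn1, Hsd17b4, Decr1 and Angptl4, so the member share given next leaves these genes out. The repeat AGGTCANAGGTCA was searched on both strands with up to 2 mismatches among its 12 fixed letters. It was found in 4 of the 26 member genes (15.4%), against 1190 of 27025 genes with a promoter window (4.4%) and 3.86% of all 32851 promoters. Known PPARA targets were put among the members by choice, so a higher share than in all genes tells nothing about these libraries. Of the 4, Slc25a20 and Creb3l3 rose (2 of 14 called members with a window), while Fabp1 and Etfa were not called (2 of 12 uncalled members). Their promoters are shown 5′ to 3′ along the gene with the match in capitals, beside those of Acsl1 and Acaa1b, the members with the largest changes, where no match with up to 2 mismatches was found. The Fabp1 window is chr6:71199629-71199928 on the plus strand, with 1 mismatch in the reverse orientation, starting at position -67 (the start site is 1 and the base before it -1). For Slc25a20 it is chr9:108661886-108662185 on the plus strand, with 2 mismatches and the match starting at position 7. Creb3l3 (chr10:81092542-81092841, minus strand, an internal start) has 2 mismatches at position -209, and Etfa (chr9:55512194-55512493, minus strand) has 2 in the reverse orientation at position -77. The Acsl1 window shown is chr8:46470787-46471086 on the plus strand and the Acaa1b window chr9:119157044-119157343 on the minus strand. Another Acsl1 window, chr8:46490716-46491015, is not shown. Its best match had 4 mismatches, against 5 in the Acsl1 window shown. Creb3l3 also has a window at the 5′ end of the gene, chr10:81098823-81099122, that is not shown. The best match in that window had 4 mismatches, so it holds no match by the rule used. A match describes these letters only, and nothing here measured binding.
Fabp1: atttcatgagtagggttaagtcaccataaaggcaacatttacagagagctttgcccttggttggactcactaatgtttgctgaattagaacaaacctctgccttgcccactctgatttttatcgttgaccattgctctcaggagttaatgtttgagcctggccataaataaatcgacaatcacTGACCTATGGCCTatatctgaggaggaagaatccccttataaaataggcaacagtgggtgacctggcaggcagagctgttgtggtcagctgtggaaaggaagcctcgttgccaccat
Slc25a20: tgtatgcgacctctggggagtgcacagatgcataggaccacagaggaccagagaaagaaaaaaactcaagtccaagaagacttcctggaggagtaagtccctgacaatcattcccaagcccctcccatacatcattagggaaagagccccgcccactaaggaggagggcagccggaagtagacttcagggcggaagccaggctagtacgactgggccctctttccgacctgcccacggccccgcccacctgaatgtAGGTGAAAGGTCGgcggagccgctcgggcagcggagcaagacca
Creb3l3: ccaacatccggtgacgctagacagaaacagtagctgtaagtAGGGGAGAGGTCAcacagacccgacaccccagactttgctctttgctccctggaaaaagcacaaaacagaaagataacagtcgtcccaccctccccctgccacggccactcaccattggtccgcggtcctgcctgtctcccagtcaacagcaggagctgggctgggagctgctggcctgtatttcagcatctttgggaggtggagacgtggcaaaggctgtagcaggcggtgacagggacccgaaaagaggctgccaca
Etfa: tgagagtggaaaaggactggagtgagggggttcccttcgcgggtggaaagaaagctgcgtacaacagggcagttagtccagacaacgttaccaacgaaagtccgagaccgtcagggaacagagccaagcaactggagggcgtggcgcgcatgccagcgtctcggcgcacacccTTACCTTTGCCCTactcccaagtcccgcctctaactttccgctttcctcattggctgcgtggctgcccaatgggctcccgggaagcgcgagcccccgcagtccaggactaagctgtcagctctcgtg
Acsl1: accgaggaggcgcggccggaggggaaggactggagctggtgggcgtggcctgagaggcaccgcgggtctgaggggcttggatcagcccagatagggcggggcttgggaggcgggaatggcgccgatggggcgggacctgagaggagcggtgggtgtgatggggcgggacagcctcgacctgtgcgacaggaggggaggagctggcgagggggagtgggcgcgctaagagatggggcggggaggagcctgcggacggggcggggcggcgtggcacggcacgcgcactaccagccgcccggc
Acaa1b: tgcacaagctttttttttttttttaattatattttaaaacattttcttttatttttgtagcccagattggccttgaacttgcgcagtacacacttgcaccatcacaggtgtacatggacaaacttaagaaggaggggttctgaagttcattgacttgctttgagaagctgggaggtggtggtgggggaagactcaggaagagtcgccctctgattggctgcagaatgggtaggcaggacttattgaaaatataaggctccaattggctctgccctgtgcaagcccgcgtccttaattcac

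Both regulators among the members rose. Ppara itself (chromosome 15, 85734983 to 85802819 in mm10, plus strand) stood at 436, 491 and 411 CPM in S100a11 shRNA libraries 2, 3 and 2600, against 263, 248 and 274 CPM in scrambled libraries 28, 30 and 31. The groups were far apart and each was tight, with a coefficient of variation of 9.2% in S100a11 shRNA libraries and 5.0% in scrambled libraries. The change was 1.70-fold (log2 0.77 ± 0.14, SE; edgeR adjusted p = 0.0117), and it was lost without scrambled library 30 (adjusted p = 0.065) and with library totals alone (adjusted p = 0.077). Creb3l3 encodes CREBH, a liver transcription factor of the endoplasmic reticulum that works with PPARA on fasting genes. It had 339, 425 and 419 CPM in S100a11 shRNA libraries against 241, 242 and 234 CPM in scrambled libraries, a change of 1.65-fold (edgeR adjusted p = 0.0156). Library 2 was the lowest of the 3 S100a11 shRNA libraries and still stood well above all scrambled libraries.

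Acsl1, the acyl-CoA synthetase that activates long-chain fatty acids for oxidation or storage, had the largest change of any member. It stood at 2171, 2001 and 2250 CPM in S100a11 shRNA libraries, against 474, 542 and 622 CPM in scrambled libraries. Every S100a11 shRNA library held more than 3 times the level of the highest scrambled library, library 2 included. The change was 3.92-fold (log2 1.97 ± 0.20, SE; edgeR adjusted p = 0.0028), and leaving out any one library gave log2 changes of 1.88 to 2.08. Fabp1, the liver fatty acid binding protein that carries fatty acids through the cytosol, had 993, 1297 and 775 CPM against 675, 617 and 712 CPM in scrambled libraries. The groups did not overlap but library 2600 came close to the scrambled range, and the log2 change of 0.61 ± 0.21 (SE) missed the threshold (edgeR adjusted p = 0.092).

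In the carnitine shuttle 3 of 4 genes rose. Slc25a20 encodes the carnitine-acylcarnitine translocase of the inner membrane, which exchanges acylcarnitine for free carnitine. It had 186, 166 and 186 CPM in S100a11 shRNA libraries against 92.3, 94.4 and 108 CPM in scrambled libraries (1.83-fold, log2 0.87 ± 0.13, SE; edgeR adjusted p = 0.0064). This was the largest log2 change among the 16 mitochondrial genes, and the log2 change stayed within 0.81 to 0.94 when any one library was left out. Crat, carnitine acetyltransferase, which is found in mitochondria and peroxisomes, had 131, 112 and 147 CPM against 67.6, 79.0 and 85.7 CPM in scrambled libraries (edgeR adjusted p = 0.0160). Cpt2, the inner membrane palmitoyltransferase that re-forms the acyl-CoA, had 128, 101 and 108 CPM against 75.6, 69.8 and 87.9 CPM in scrambled libraries. Its log2 change of 0.53 passed narrowly (edgeR adjusted p = 0.046) and lost the call in 11 of 15 alternatives, among them leaving out any one of the 6 libraries (edgeR adjusted p from 0.0615 to 0.194). Cpt1a, the outer membrane enzyme regarded as the controlled entry step, had 907, 774 and 700 CPM against 471, 505 and 628 CPM in scrambled libraries. The Cpt1a groups did not overlap, yet scrambled library 31 approached library 2600 and the log2 change of 0.57 was not called (edgeR adjusted p = 0.074).

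Of the 4 acyl-CoA dehydrogenases, which open each round, 2 rose. Acadm, for medium chains, had 273, 254 and 264 CPM in S100a11 shRNA libraries against 162, 147 and 177 CPM in scrambled libraries (1.63-fold; edgeR adjusted p = 0.0125). Acadvl, for very long chains, averaged 248.8 ± 19.1 CPM in S100a11 shRNA libraries and 163 ± 11.3 CPM in scrambled libraries (SD, n = 3 each; log2 0.61, edgeR adjusted p = 0.0214). Acads, for short chains, and Acadl, for long chains, were not called, with log2 changes of 0.41 and 0.31 (edgeR adjusted p = 0.092 and 0.22). Acadl levels overlapped between the groups, at 194 CPM in library 3 and 197 CPM in scrambled library 31.

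Of the 4 genes of the later mitochondrial steps 1 rose, and their median log2 change of 0.23 was the lowest of any role. The trifunctional protein, which carries hydratase, dehydrogenase and thiolase for long chains, is built from the products of Hadha and Hadhb, neighbours on chromosome 5. Hadha had 370.0, 295 and 317 CPM in S100a11 shRNA libraries against 263, 263 and 308 CPM in scrambled libraries (log2 0.24 ± 0.15, SE; edgeR adjusted p = 0.34). Hadhb had 118, 97.6 and 95.0 CPM in S100a11 shRNA libraries against 88.4, 102 and 106 CPM in scrambled libraries (log2 0.07 ± 0.14, SE; edgeR adjusted p = 0.80). In both genes library 2 was highest, and libraries 3 and 2600 lay among or next to the scrambled libraries. Hadh, the short-chain 3-hydroxyacyl-CoA dehydrogenase, was likewise highest in library 2, with 296 CPM there but 185 and 172 CPM in libraries 3 and 2600, against 180, 162 and 215 CPM in scrambled libraries (edgeR adjusted p = 0.54). Acaa2, the mitochondrial thiolase for medium and short chains, was called higher among these 4 genes. It had 488, 513 and 535 CPM against 361, 299 and 344 CPM in scrambled libraries, without overlap (log2 0.61 ± 0.15, SE; edgeR adjusted p = 0.0280). With library totals alone Hadha, Hadhb, Hadh and Acadl had log2 changes below 0, between -0.29 (Hadhb) and -0.04 (Acadl). Their direction thus depended on the scaling, and none of the 4 was called in either direction.

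Auxiliary enzymes prepare unsaturated chains for the round. Eci1, the mitochondrial enoyl-CoA isomerase, rose, averaging 113 ± 10.4 CPM in S100a11 shRNA libraries and 73.8 ± 8.503 CPM in scrambled libraries (SD, n = 3 each; log2 0.62, edgeR adjusted p = 0.0237). Decr1, the mitochondrial dienoyl-CoA reductase, averaged 125 ± 24.6 CPM in S100a11 shRNA libraries and 85.3 ± 13.7 CPM in scrambled libraries and missed the threshold (log2 0.55, edgeR adjusted p = 0.074). Electrons leave the dehydrogenases through the flavoprotein ETF, a pair of subunits from Etfa and Etfb, and its membrane oxidoreductase from Etfdh. Etfb had 195, 191 and 221 CPM in S100a11 shRNA libraries against 129, 109 and 127 CPM in scrambled libraries (1.67-fold; edgeR adjusted p = 0.0117). Etfdh rose as well (228 ± 26.7 CPM in S100a11 shRNA libraries and 145 ± 18.7 CPM in scrambled libraries, SD, n = 3 each; edgeR adjusted p = 0.0275). The partner subunit Etfa did not pass (log2 0.40 ± 0.18, SE; edgeR adjusted p = 0.17), and its groups overlapped, with 92.0 CPM in library 3 and 95.0 CPM in scrambled library 31. Of all stretches of 50 bases in Etfb transcripts, 43.8% also occur in the predicted gene Gm45233. This gene overlaps Etfb on the same strand by 617 exon bases and has no row of its own in the deposited counts. For Hadhb 18.1% of the stretches occur in Gm13910, so the Hadhb counts depend on how shared reads were assigned.

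Peroxisomal enzymes rose in 4 of 5 cases. Acaa1b (chromosome 9, 119148023 to 119157093, minus strand), a 3-ketoacyl-CoA thiolase that is a well-known PPARA target in rodent liver, had 2477, 2888 and 4140 CPM in S100a11 shRNA libraries against 1539, 1137 and 1347 CPM in scrambled libraries. The groups did not overlap, and library 2600 was far above the others. The change was 2.36-fold (log2 1.24 ± 0.26, SE; edgeR adjusted p = 0.0184), and it was not called without scrambled library 30 or 31 (edgeR adjusted p = 0.082 and 0.073). Its close copy Acaa1a had 219, 271 and 323 CPM against 166, 153 and 157 CPM in scrambled libraries (1.71-fold; edgeR adjusted p = 0.0184). Both thiolases were lowest in library 2 and highest in library 2600 among the S100a11 shRNA libraries. They share sequence, with 30.5% of the 50-base stretches of Acaa1b also found in Acaa1a, so their split is uncertain, but the sum of both was 2696, 3159 and 4463 CPM against 1704, 1290 and 1504 CPM in scrambled libraries, 2.29-fold.

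Hsd17b4 encodes the peroxisomal D-bifunctional protein, which hydrates and dehydrogenates branched and very long chains. It had 490, 485 and 510 CPM in S100a11 shRNA libraries against 323, 272 and 318 CPM in scrambled libraries, with a coefficient of variation of only 2.68% in the S100a11 shRNA group (1.63-fold; edgeR adjusted p = 0.0164). Eci2, an enoyl-CoA isomerase found mainly in peroxisomes, had 203, 216 and 241 CPM against 109, 145 and 140 CPM in scrambled libraries (1.68-fold; edgeR adjusted p = 0.0172). Both genes showed a clear gap between the groups. Ehhadh encodes the L-bifunctional protein, which acts on dicarboxylic acids and is a classic PPARA target. It had 563, 293 and 664 CPM against 319, 245 and 304 CPM in scrambled libraries, so libraries 2 and 2600 were high while library 3 fell within the scrambled range. The mean was 1.75-fold higher and was not called (log2 0.81 ± 0.28, SE; edgeR adjusted p = 0.089), and without library 3 it was (edgeR adjusted p = 0.0271).

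Set side by side, 8 of 16 mitochondrial and 4 of 5 peroxisomal genes rose. The median log2 change was 0.78 (range 0.70 to 1.24) for the peroxisomal genes and 0.56 (range 0.07 to 0.87) for the mitochondrial genes, and 0.75 for the 11 genes of neither class, of which 6 rose. The difference between the peroxisomal and the mitochondrial median was 0.21 and was not tested. Taken per library against the scrambled mean, the peroxisomal minus the mitochondrial median was 0.01, 0.31 and 0.58 on the log2 scale in S100a11 shRNA libraries 2, 3 and 2600, and 0.11, -0.02 and -0.09 in the scrambled ones (28, 30 and 31), with an SD between libraries of a group of 0.22 and a difference of 0.30 between the group means. Libraries 3 and 2600 leaned to the peroxisomal side, while library 2 lay among the scrambled libraries, so the groups overlapped. The difference was 0.35 when the library labelled S100a11 shRNA 2 was left out and 0.10 when library 2600 was, the highest and the lowest of the values when any one library was left out. Without library 2 the numbers that rose were 7 mitochondrial and 4 peroxisomal, without scrambled library 30 they were 1 and 0, without scrambled library 28 they were 2 and 2, without scrambled library 31 they were 4 and 0, and with library totals alone 1 and 1. In the main fit every peroxisomal gene lay above 0.70, a level that only Slc25a20, Etfb and Acadm reached among the mitochondrial genes. That level was set by the lowest peroxisomal gene, Hsd17b4. With 1 library left out, the lowest log2 changes were 0.56 for Ehhadh, 0.61 for Acaa1a, 0.63 for Hsd17b4 and Eci2, and 0.98 for Acaa1b.

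Summed over genes in CPM per kb of gene length, so that long and short transcripts count alike, the peroxisomal genes held 1720, 1856 and 2645 in S100a11 shRNA libraries against 1064, 831 and 970.1 in scrambled libraries (2.17-fold). The mitochondrial genes held 1563, 1387 and 1463 CPM per kb in S100a11 shRNA libraries against 1001, 909 and 1102 CPM per kb in scrambled libraries (1.47-fold). The groups did not overlap in either sum. Acaa1b made up most of the peroxisomal sum, and the sum of the other 4 genes was 458, 384 and 535 CPM per kb in S100a11 shRNA libraries against 279.7, 251 and 283 CPM per kb in scrambled libraries (1.69-fold).

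As a percentage of the mitochondrial sum, the peroxisomal sum was 110.0%, 134% and 181% in S100a11 shRNA libraries 2, 3 and 2600 and 106%, 91.4% and 88.1% in the scrambled ones (28, 30 and 31). Libraries 3 and 2600 stood above the scrambled range, while library 2 was near scrambled library 28. Without the correction for length this percentage was 93.3% in library 2 and 94.1% in scrambled library 28, so that the groups then overlapped. Without Acaa1b the percentages per length were 29.3%, 27.66% and 36.6% in S100a11 shRNA libraries and 27.96%, 27.66% and 25.7% in scrambled libraries, and only library 2600 stood apart.

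**Figure D2:**
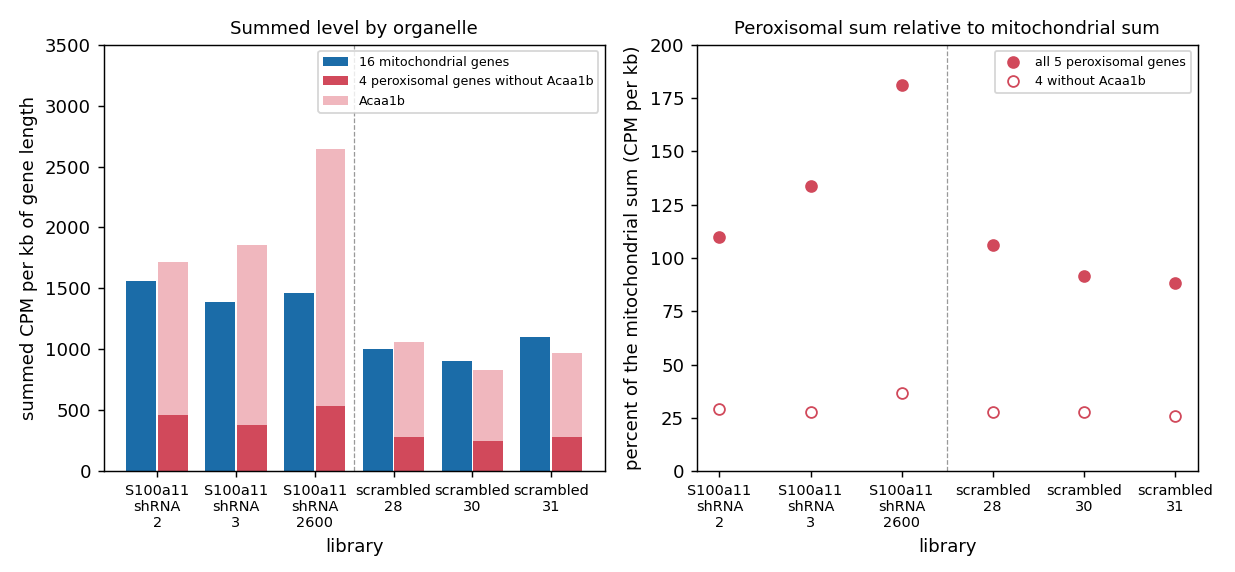
Left, summed CPM per kb of the 16 mitochondrial and 5 peroxisomal genes (y axis) in each library, with the share of Acaa1b in light red; right, the peroxisomal sum as a percentage of the mitochondrial sum, with and without Acaa1b. Both sums are higher in each S100a11 shRNA library than in any scrambled library, while the percentage of library 2 (110.0%) lies next to that of scrambled library 28 (106%).

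Among PPARA targets outside the oxidation steps, Pex11a and Angptl4 rose and 4 genes were not called. Pex11a encodes a membrane protein that drives peroxisome division. It had 247, 205 and 190 CPM in S100a11 shRNA libraries against 78.3, 97.2 and 111 CPM in scrambled libraries, with a wide gap (2.24-fold, log2 1.16 ± 0.17, SE; edgeR adjusted p = 0.0060) and log2 changes of 1.02 to 1.29 when any one library was left out. Angptl4, a secreted inhibitor of lipoprotein lipase, had 211, 256 and 294 CPM against 90.1, 150 and 146 CPM in scrambled libraries (1.97-fold; edgeR adjusted p = 0.0220). Both were high in all S100a11 shRNA libraries. Aldh3a2, a microsomal fatty aldehyde dehydrogenase, had 1033, 778 and 689 CPM against 465, 449 and 619 CPM in scrambled libraries, without overlap but short of the threshold (log2 0.71; edgeR adjusted p = 0.059). Vnn1, a pantetheinase that releases cysteamine and pantothenate, averaged 109.6 ± 7.68 CPM in S100a11 shRNA libraries and 75.8 ± 13.0 CPM in scrambled libraries (SD, n = 3 each; log2 0.53; edgeR adjusted p = 0.054).

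Pdk4 and Bdh1 differed widely between libraries labelled S100a11 shRNA. Pdk4, the kinase that shuts off pyruvate dehydrogenase and so favours fat as fuel, had 51.0, 21.8 and 73.6 CPM in S100a11 shRNA libraries against 21.02, 21.9 and 28.8 CPM in scrambled libraries. Libraries 2 and 2600 were high and library 3 was at the scrambled level, which gave a log2 change of 1.03 ± 0.37 (SE) that was not called (edgeR adjusted p = 0.098), or was called without library 3 (edgeR adjusted p = 0.0211). Bdh1, the mitochondrial enzyme that makes beta-hydroxybutyrate, had 259, 218 and 122 CPM against 193, 153 and 224 CPM in scrambled libraries. Library 2600 was the lowest of all 6 libraries for Bdh1 although it was the highest for 14 other members within its group, and the log2 change was 0.07 ± 0.27 (SE; edgeR adjusted p = 0.89).

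**Figure D3:**
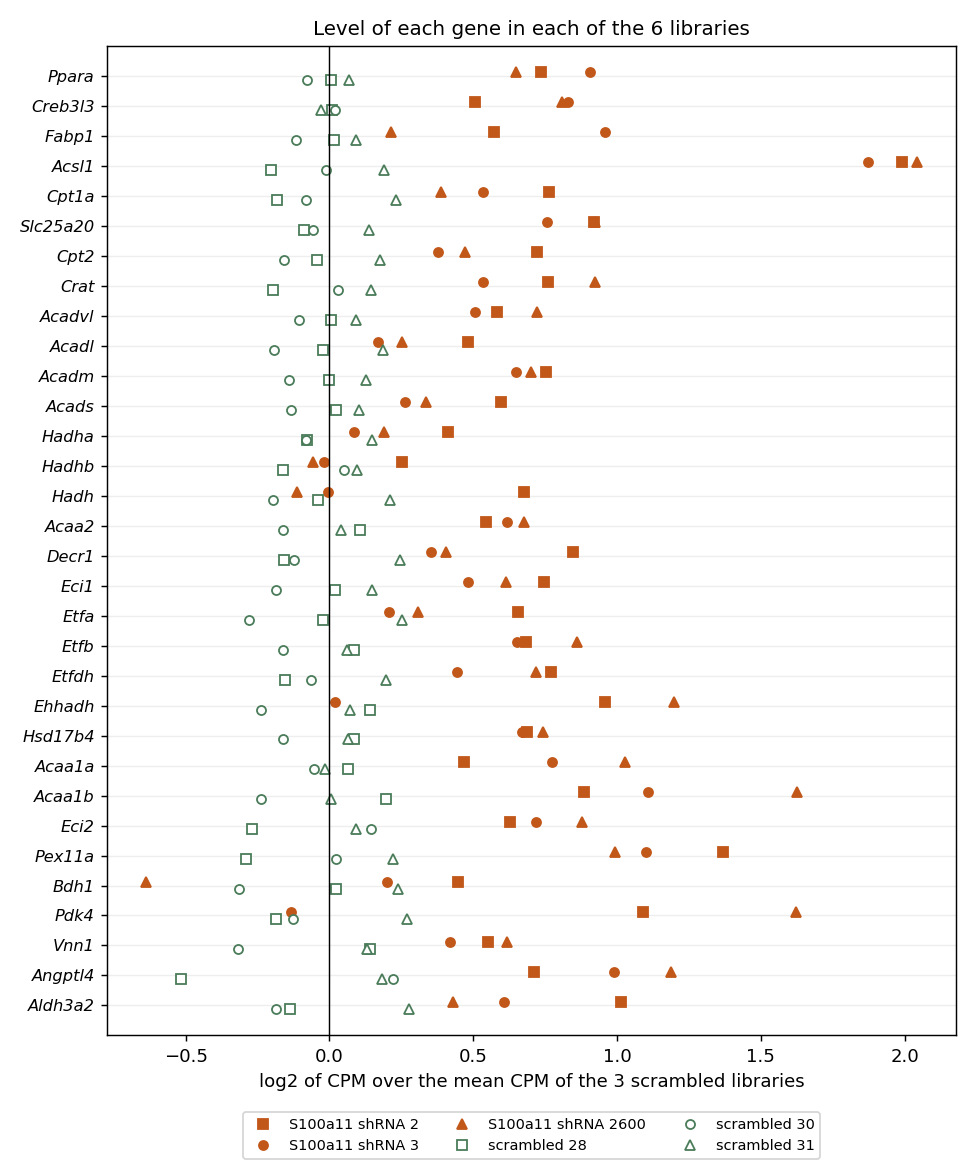
Level of each gene in each library as log2 of its CPM over the mean CPM of the scrambled libraries (x axis), with S100a11 shRNA libraries as filled and scrambled libraries as open symbols. In 24 of 32 genes all filled symbols lie right of all open ones, and library 3 (filled circle) falls back among the open symbols for Ehhadh and Pdk4.

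The S100a11 shRNA libraries did not rank the same way for every gene. Library 2 was the highest of the 3 for 15 members, library 2600 for 14 and library 3 for 3, and library 3 was the lowest for 18. Library 3 nevertheless had the highest Ppara (491 CPM) and Fabp1 (1297 CPM). The median coefficient of variation of the members was 12.3% in S100a11 shRNA libraries and 12.4% in scrambled libraries. For peroxisomal genes it was 19.2% in S100a11 shRNA libraries and 13.5% in scrambled libraries. For mitochondrial genes it was 11.8% in S100a11 shRNA libraries and 10.5% in scrambled libraries. Within the S100a11 shRNA group Pdk4, Ehhadh, Bdh1 and Hadh varied most, at 53.2%, 37.8%, 35.2% and 31.5%.

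Levels of different genes were compared per kilobase of gene length. Fabp1, Acaa1b and Acaa2 were the most abundant members in both groups, with means of 1848, 1615 and 338 CPM per kb in S100a11 shRNA libraries and 1207, 684 and 221 CPM per kb in scrambled libraries. Acsl1 ranked 4 of 32 in S100a11 shRNA libraries, at 227 CPM per kb, and 14 of 32 in scrambled libraries, at 57.8 CPM per kb. Pdk4 was the least abundant in both, at 13.9 CPM per kb in S100a11 shRNA libraries and 6.81 CPM per kb in scrambled libraries. Acaa1b stood at 25.4, 24.0 and 28.8 times the level of Acaa1a per kb in S100a11 shRNA libraries, against 20.9, 16.7 and 19.3 times in scrambled libraries. These ratios are uncertain, because both genes share sequence and their deposited lengths differ (1962 bases for Acaa1b and 4414 for Acaa1a). The 2 subunit genes of the trifunctional protein differed in level, with Hadha at 61.3 and Hadhb at 15.7 CPM per kb in S100a11 shRNA libraries, and Hadha at 52.1 and Hadhb at 14.98 CPM per kb in scrambled libraries. The size of this gap depends on the length used: the deposited length of Hadha is 5341 bases, while GENCODE M21 gives it 8730 exon bases. It also depends on how reads that Hadhb shares with Gm13910 were assigned.

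**Figure D4:**
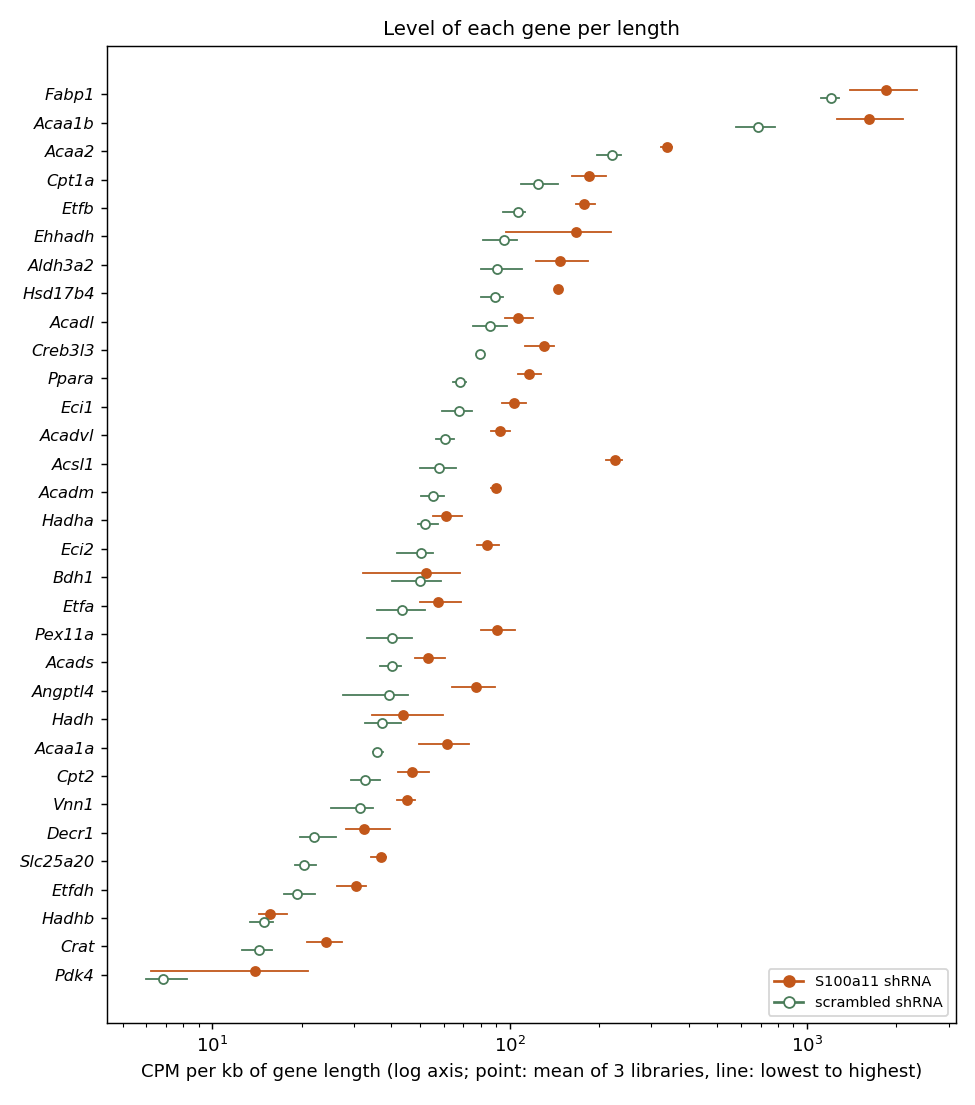
Level of each gene in CPM per kb of gene length (x axis, log scale), ordered by the scrambled level, with points for the mean of 3 libraries and lines from the lowest to the highest. Fabp1 and Acaa1b stand apart at the top in both groups, and Acsl1 shows the widest gap, at 227 CPM per kb in S100a11 shRNA libraries and 57.8 CPM per kb in scrambled libraries.

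Other genes of the same pathways, from lists that do not contain the members, rose in part. Of 21 other mitochondrial oxidation genes 9 rose and 1 fell (median log2 change 0.55). Slc22a5, the carnitine importer of the plasma membrane, rose by 1.14 on the log2 scale (edgeR adjusted p = 0.0035), the 3-hydroxyacyl-CoA dehydrogenase Hsd17b10 by 1.15 (0.0038) and the acyl-CoA dehydrogenase Acad11 by 0.86 (0.0117), while Acss1, the mitochondrial acetyl-CoA synthetase, fell by 1.37 (0.0093). Of 23 other peroxisomal oxidation genes 12 rose and 0 fell in edgeR (17 and 0 at an unadjusted p under 0.05, 14 and 0 in DESeq2), with a median of 0.70. Each list holds at least 1 gene of the other organelle, seen after the values were known. Nudt7 (0.81, edgeR adjusted p = 0.0478), counted with the mitochondrial genes, encodes a peroxisomal CoA diphosphatase, and 1 uncalled gene counted as peroxisomal encodes a mitochondrial enzyme. With both moved, 8 of 21 mitochondrial and 13 of 23 peroxisomal genes rose, with medians of 0.45 and 0.74. No other gene was moved. Slc22a5 of the plasma membrane stayed with the mitochondrial genes, and Acot12, a cytosolic thioesterase, stayed with the peroxisomal genes. The lists therefore do not split cleanly by organelle. Hacl1, the lyase of alpha-oxidation, had 281, 138 and 386 CPM in S100a11 shRNA libraries against 65.1, 44.4 and 82.1 CPM in scrambled libraries (log2 2.07; edgeR adjusted p = 0.0095). The thioesterases Acot12, Acot4 and Acot8 rose by 0.89, 1.95 and 0.81 on the log2 scale (edgeR adjusted p from 0.0061 to 0.0097). Acot4 belongs to a cluster of related genes, with 2.36% of its 50-base stretches also in Acot6.

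Peroxisome biogenesis genes rose in 10 of 21 cases, with 0 lower in edgeR and a median log2 change of 0.52 (16 higher and 0 lower at an unadjusted p under 0.05, 14 and 0 in DESeq2). Named by p, they were led by Pxmp2, a channel of the peroxisomal membrane (0.78; edgeR adjusted p = 0.0079), the membrane assembly factor Pex16 (0.83; 0.0089) and the matrix protease Tysnd1 (0.68; 0.0113). Of 15 genes of microsomal omega oxidation, which makes dicarboxylic acids for peroxisomes, 7 rose and 2 fell (median 0.93). Cyp4a10, an omega-hydroxylase under PPARA, had 670, 394 and 1619 CPM in S100a11 shRNA libraries against 157, 197 and 232 CPM in scrambled libraries (log2 2.19; edgeR adjusted p = 0.0170), with library 3 again the lowest of its group and above all scrambled libraries. Cyp4a12a and Cyp4a12b were higher by 1.27 and 2.79 on the log2 scale (edgeR adjusted p = 0.0149 and 0.0122), but 48.9% of the 50-base stretches of Cyp4a12a also occur in Cyp4a12b, so the split between them is uncertain. Cyp4f16, another cytochrome of the family, fell by 1.06 (edgeR adjusted p = 0.0084).

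Ketone body genes were not called higher. Of 9 tested, 0 rose and 2 fell in edgeR (median 0.25), with 3 higher and 2 lower both at an unadjusted p under 0.05 and in DESeq2. The falls were Fgf21, a hormone under PPARA (log2 -1.52; edgeR adjusted p = 0.0069), and Oxct1, the ketone-using transferase that hepatocytes largely lack (log2 -0.97; edgeR adjusted p = 0.0273). Aacs, the cytosolic acetoacetyl-CoA synthetase, was not called (log2 0.90; edgeR adjusted p = 0.087). Of 35 other PPARA targets 8 rose and 2 fell, with a median of 0.27. The monoacylglycerol lipase Abhd6 was higher by 1.46 on the log2 scale (edgeR adjusted p = 0.0023), the thioesterase Acot1 by 2.54 (0.0030), the retinol saturase Retsat by 1.28 (0.0045) and the bile acid hydroxylase Cyp8b1 by 1.41 (0.0079). Of 27 partners and coregulators of PPARA 2 rose and 0 fell in edgeR (10 and 0 at an unadjusted p under 0.05, 4 and 0 in DESeq2), against 5.82% higher among all genes tested. These were Sirt3, the mitochondrial deacetylase (0.69; edgeR adjusted p = 0.0113), and Acacb, the acetyl-CoA carboxylase whose product inhibits CPT1 (0.77; 0.0229). Rxra, the usual partner, was not called (0.56; edgeR adjusted p = 0.055). Without scrambled library 30 the numbers that rose were 2 of the mitochondrial, 4 of the peroxisomal, 0 of the biogenesis, 0 of the omega oxidation, 4 of the other PPARA target and 0 of the partner genes. Without library 2 they were 11 of the mitochondrial, 11 of the peroxisomal, 10 of the biogenesis, 9 of the omega oxidation, 10 of the other PPARA target, 6 of the partner and 0 of the ketone body genes, against 9.13% of all genes. In that fit 1 mitochondrial, 1 peroxisomal, 0 biogenesis, 2 omega oxidation, 3 other PPARA target, 1 partner and 2 ketone body genes fell.

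Markers of other liver cell types moved at the same time, and their part in the members' changes was not tested. All 16 hepatocyte markers stood at 279 CPM or more in every library, led by Alb at 18120 to 31080 CPM, and their summed level was 83080, 66280 and 64460 CPM in S100a11 shRNA libraries against 61850, 51740 and 63510 CPM in scrambled libraries. Of these 16, 2 rose (Serpina1c and Tat) and 0 fell, with a median log2 change of 0.31. Of 10 cholangiocyte markers 8 fell and 0 rose, and their sum was 157 to 180 CPM in S100a11 shRNA libraries against 513 to 631 CPM in scrambled libraries. Stellate cell and fibroblast markers fell in 6 of 10 cases (sum 456 to 810 CPM in S100a11 shRNA libraries, 983 to 1397 CPM in scrambled libraries), and macrophage markers in 4 of 10 (268 to 614 CPM in S100a11 shRNA libraries, 555 to 849 CPM in scrambled libraries). Endothelial markers rose in 2 and fell in 1 of 10 cases (1010 to 1436 CPM in S100a11 shRNA libraries, 966 to 1043 CPM in scrambled libraries), and lymphocyte markers fell in 1 of 10 (17.5 to 21.6 CPM in S100a11 shRNA libraries, 31.6 to 65.0 CPM in scrambled libraries). Adipocytes also oxidise fat: of 10 markers 5 had counts enough to test, of which Cfd, Cidea and Lipe rose and Fabp4 fell, while Adipoq, which defines that cell, stood at 0.32 CPM or less in every library. Without library 2 the numbers that fell were 8 cholangiocyte, 6 stellate, 4 macrophage, 1 endothelial, 3 lymphocyte and 1 adipocyte markers, and 1 macrophage, 3 endothelial, 2 hepatocyte and 4 adipocyte markers rose. Without any one of the other 5 libraries, 1 stellate and 2 macrophage markers fell, while 8 or 9 cholangiocyte markers did and 1 lymphocyte marker did. No marker of any of these lists was at 0 in all 6 libraries.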

How the data were processed

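RNA of whole mouse liver was extracted with Trizol and a column kit, and ribosome-depleted stranded libraries were made from total RNA, per the labels' protocols. The authors deposited whole-number counts for each Ensembl gene, unnormalised, and the submitters' processing notes name the build mm10. Which aligner and counter were used, and whether counting was stranded, is not given in the sources used here. Of 6 libraries, 3 per group by label, 0 columns belonged to other samples.

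Counts were analysed with edgeR 4.0.16 in R 4.3.3. The filterByExpr function, at a minimum count of 10 and a minimum total of 15, kept 19352 genes, and totals were scaled with TMM factors (0.822 to 0.932 in S100a11 shRNA libraries, 1.10 to 1.19 in scrambled libraries). The quasi-likelihood F test (glmQLFit without the legacy setting, glmQLFTest) used Benjamini-Hochberg adjustment over all tested genes and a threshold of 0.05, and edgeR's common coefficient of biological variation came to 0.223. CPM divide the count by the TMM-scaled total, and CPM per kb by the gene length in the deposited table. Depth was 53517387 to 78091845 counts per library, and the lowest raw count of any member in any library was 1364 (Pdk4).

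The members and all lists were chosen with earlier results of these data known, so counts over them are descriptions and no list was tested. Named genes were S100a11, the members and the 4 genes of each pathway list with the smallest p; any other gene was chosen after its values were seen. Some genes that this rule names are not reported here. Gene positions are those of the table. Bdh2, held by 2 rows, was left out, and the older symbols Emr1, Lyrm5 and Gyk were matched to Adgre1, Etfrf1 and Gk. Shared sequence was counted as identical 50-base stretches in GENCODE M21 transcripts. By exons on the opposite strand Acaa1a overlaps Myd88, Acadvl overlaps Dvl2 and Crat overlaps Dolpp1. These partners held 6.6% to 12.8%, 5.27% to 8.72% and 11.2% to 32.1% of the counts of the member they overlap.

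Alternatives were RLE and upper-quartile factors, library totals alone, no filter, a filter of 1 CPM or more in at least 3 libraries, dropping the 20 most abundant genes, DESeq2 1.42.0, voom in limma 3.58.1, leaving out each library in turn and, added after seeing the data, the legacy quasi-likelihood. The edgeR fit was also run on simulated data with known changes, and its outcome is not reported here. Tables were made in python 3.11.15 with pandas 2.3.3 and numpy 2.4.6, and plots with matplotlib 3.10.9.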

Additional observations from a re-analysis of the deposited data

How the results depend on the processing

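Of the 480 member values over 15 alternatives, 393 kept direction and side of the threshold, 64 lost their call, 11 gained one and 12 changed sign. Of the 18 calls, 3 (Acsl1, Slc25a20 and Pex11a) held under every alternative, and DESeq2 called 25 members. With library totals alone the members' median log2 change was 0.32, the mitochondrial median 0.21 and the peroxisomal median 0.40, with 4 members higher, 0 lower, and 4367 genes called in all. Leaving out each library in turn gave 724 to 4176 called genes, 3 to 17 members higher, a members' median of 0.61 to 0.72, a mitochondrial median of 0.41 to 0.65 and a peroxisomal median of 0.66 to 0.81. Only uncalled members changed sign. With library totals alone Acadl became -0.045, Bdh1 -0.26, Hadh -0.11, Hadha -0.12 and Hadhb -0.29, and with upper-quartile factors Bdh1 became -0.018 and Hadhb -0.029. Without the library labelled S100a11 shRNA 2, Bdh1 became -0.19, Hadh -0.089 and Hadhb -0.069, without scrambled library 30 Bdh1 became -0.061, and without scrambled library 28 Hadhb became -0.0053. Leaving out each library gave -0.19 to 0.32 for Bdh1, -0.089 to 0.37 for Hadh and -0.069 to 0.12 for Hadhb. Leaving out each library gave 0 to 10 biogenesis, 4 to 11 other peroxisomal, 2 to 11 other mitochondrial and 0 to 9 omega oxidation genes higher, against 1, 6, 3 and 5 with library totals alone. The cause of these shifts was not tested. Counting Crat as peroxisomal, leaving out Eci2 or adding Bdh1 and Pdk4 left the peroxisomal minus mitochondrial difference at 0.20 to 0.23. No paired analysis was possible because the groups share no replicate numbers. Each group had 3 libraries, and how far their spread or the counting depth limits the calls was not tested.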

Other observations

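Library 3 stood apart from libraries 2 and 2600 for part of the PPARA targets, a pattern chosen after the values were seen. Ehhadh was 293 CPM in library 3 against 563 and 664 CPM in libraries 2 and 2600, Pdk4 21.8 against 51.0 and 73.6 CPM, Hacl1 138 against 281 and 386 CPM, and Cyp4a10 394 against 670 and 1619 CPM. In the same library Ppara (491 CPM) and Fabp1 (1297 CPM) were the highest of all 6 libraries, and S100a11 was at 3.55 CPM, close to library 2600. The scrambled libraries spanned 245 to 319 CPM for Ehhadh and 21.02 to 28.8 CPM for Pdk4.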
